A study of Drosophila melanogaster with 2 samples.

Results

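ZAD zinc-finger genes encode proteins with a zinc-finger-associated domain near the amino terminus and an array of C2H2 zinc fingers towards the carboxy terminus. CG14667, whose GFP-tagged product was mapped on chromatin in Drosophila melanogaster embryos, is assigned to this family, and 9 better-known members were set beside it: Sry-beta, Sry-delta, M1BP, pita, ZIPIC, dwg, grau, ouib and trem. The 10 genes were chosen by name, out of 13968 protein-coding genes and 24166 genes of all kinds in the annotation used. Both samples were whole embryos of 0 to 24 h from 1 transgenic strain, labelled CG14667-GFP, in which the protein is fused to eGFP. Chromatin sheared to 200 to 800 bp was precipitated with an anti-GFP antibody, and the labels number 2 biological replicates of this 1 group. No untagged strain or other condition was part of the comparison, and embryos of all stages and tissues were pooled, so no peak can be assigned to a cell type.

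The ZAD is a dimerisation domain that holds a zinc ion through cysteines, while each C2H2 finger can contact DNA, so that family members can bind DNA and pair with themselves. In insects the family is large. Its studied members include insulator proteins, promoter factors and regulators of the germ line. The values below therefore describe where peaks of one tagged ZAD protein were called at the genes that encode others, and at its own gene.

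The lists behind these values were peak lists only, so the depth of either replicate is unknown. The conservative list, made by the authors from both replicates, held 3083 peaks, 3029 of them on the chromosome arms with a median signal of 115.4. The lists made from single replicates held 2678 peaks on the arms for replicate 1 and 2052 for replicate 2. The signal is the value the authors' peak caller gave each peak against a control, on a scale the listings do not state. Each ranked list held between 86269 and 133987 candidates, most of which did not pass the authors' limit on the irreproducible discovery rate (IDR), the expected share of irreproducible peaks among those ranked as high. A gene was counted as having a peak at a start when a summit lay within 500 bp of the 5' end of any of its transcripts.

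The protein sequences were first described against a ZAD profile. CG14667 had 337 residues, with a match to the ZAD profile from residue 5 to residue 85 and 5 C2H2 patterns between residues 179 and 319. Of the 10 proteins, 8 matched the final profile below the E-value limit of 1e-5. That profile was rebuilt from the 80 hits of a first one, which was made from the first 100 residues of these same 10 proteins. A member's match is therefore no independent check of its assignment to the family. Sry-delta (E = 3.2e-05) and Sry-beta (E = 0.00025) gave weaker matches that missed the limit. The number of C2H2 patterns ran from 5, in CG14667, Sry-beta, M1BP, ouib and trem, to 10 in pita. Over the aligned first 100 residues the 45 pairs of members shared between 10.1% and 34.0% of residues, with a median of 17.9%. The closest pair was CG14667 with ouib (33 of 97 aligned residues identical), followed by CG14667 with M1BP (29 of 93).

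Peaks of tagged CG14667 lay at the starts of 4 of the 10 genes, and at the same 4 in every thresholded list. The lists are not independent of each other, because all come from the same 2 replicates. The 4 genes were Sry-delta, M1BP, trem and pita, or 40.0% of the members, where 12.6% of all protein-coding genes had a summit at a start in the conservative list. The other 6, CG14667 itself, Sry-beta, ZIPIC, dwg, grau and ouib, had none. In the longer thresholded list of the series the background was 13.6%, and in the single-replicate lists it was 11.4% for replicate 1 and 9.62% for replicate 2. The members were chosen with earlier results of these data known, so these counts are a description and were not tested.

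**Figure D1:**
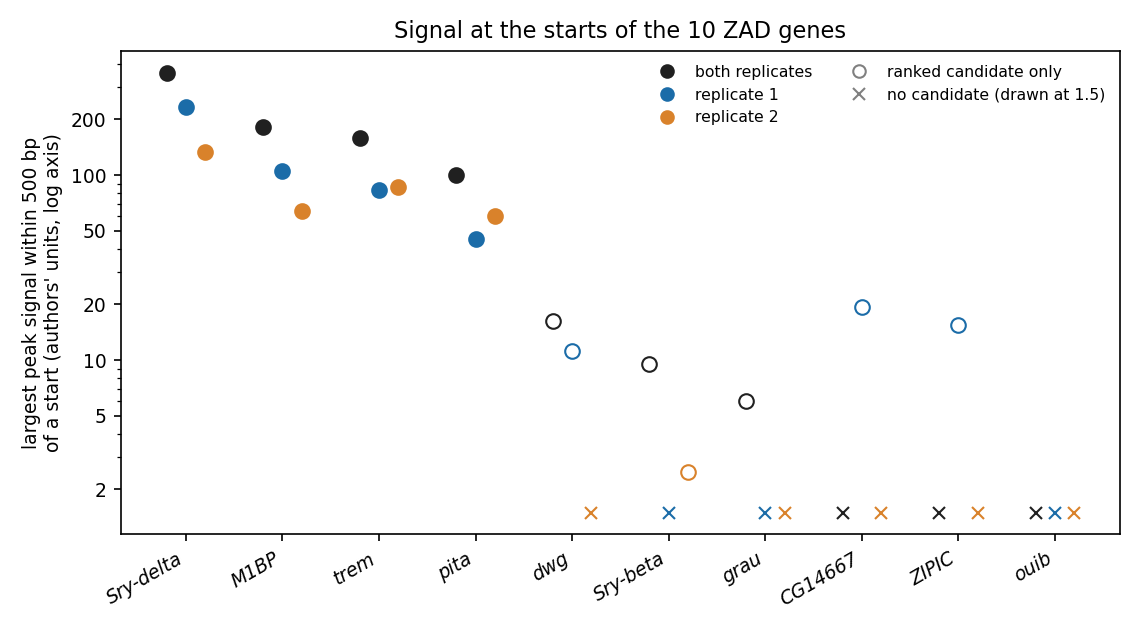
Largest peak signal within 500 bp of a start (log axis, authors' units) for each of the 10 genes, in both replicates together and in each replicate; filled points passed the authors' threshold, open points are ranked candidates only, and crosses stand for no candidate. Filled points of Sry-delta, M1BP, trem and pita lie between 45.0 and 357, and the open points of the other genes lie at or below 19.3.

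Sry-delta (FBgn0003512, 3R at 30043341 to 30044886, plus strand) had the strongest peak of the 10. It encodes a zinc-finger transcription factor known for its part in the expression of the anterior determinant bicoid in the female germ line. The peak lay on 3R at 30043188 to 30043409 and its summit was intergenic, 20 bp upstream of the single start. Its pooled signal was 357, and the replicates' own lists gave 234 in replicate 1 and 133 in replicate 2. It ranked 242 of the 3029 conservative peaks on the arms, and no other gene had a start within 500 bp of the summit. The peak was narrow, with 222 bp in the conservative list and 76 bp in replicate 2, where the median widths were 336 and 296 bp.

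M1BP (FBgn0037621, 3R at 8729790 to 8731698, minus strand) encodes the factor that binds Motif 1, a core promoter element of many genes with paused RNA polymerase. The peak there, on 3R at 8731815 to 8732150, reached 182 in both replicates together, with 105 in replicate 1 and 63.7 in replicate 2. The summit was intergenic and 285 bp upstream of M1BP, but only 108 bp from the start of CG8202, which runs the other way. When a summit counted for no gene but the one whose start was closest, M1BP dropped out and 3 of the 10 genes remained, beside 8.9% of protein-coding genes.

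trem (FBgn0038767, 3R at 20029560 to 20031309, minus strand) is required for the double-strand breaks that start meiotic recombination. Its peak, on 3R at 20031258 to 20031593, reached 159 in both replicates together, and the 2 replicate values were close together, at 82.6 in replicate 1 and 86.3 in replicate 2. The summit was intergenic, 117 bp upstream of trem and 397 bp upstream of idc, a divergent neighbour that also matched the ZAD profile. A single peak thus lay at the starts of a pair of family genes.

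The DNA under these 3 summits is shown because the peaks differ in base composition. Each line gives the 201 bases centred on the summit, 5' to 3' on the strand of the gene, from the RefSeq sequence of the Release 6 genome (dm6). Capitals mark the longest stretch made of A and T alone. At trem a stretch of equal length, downstream of the summit, is left unmarked. The windows are 3R:30043221-30043421 on the plus strand for Sry-delta, 3R:8731883-8732083 on the minus strand for M1BP and 3R:20031326-20031526 on the minus strand for trem.
Sry-delta: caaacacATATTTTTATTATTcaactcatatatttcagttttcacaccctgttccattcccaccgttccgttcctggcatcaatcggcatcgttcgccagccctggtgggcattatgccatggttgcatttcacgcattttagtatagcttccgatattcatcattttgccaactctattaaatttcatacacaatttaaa
M1BP: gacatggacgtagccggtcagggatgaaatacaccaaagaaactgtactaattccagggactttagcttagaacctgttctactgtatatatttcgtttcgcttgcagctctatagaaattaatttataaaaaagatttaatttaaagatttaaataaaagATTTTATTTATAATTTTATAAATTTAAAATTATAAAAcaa
trem: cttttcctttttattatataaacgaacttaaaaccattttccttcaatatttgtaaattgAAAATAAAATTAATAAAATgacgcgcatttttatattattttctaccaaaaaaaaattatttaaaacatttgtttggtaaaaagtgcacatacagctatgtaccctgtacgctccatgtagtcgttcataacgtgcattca

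The M1BP window held an unbroken run of 37 A or T bases, 61 to 97 bp downstream of the summit, towards the gene. Runs of at least 37 occurred in 0.495% of the 3029 conservative windows of this width, whose median longest run was 12. The trem window had a marked run of 19 upstream of the summit and an unmarked one of equal length downstream. In 16.0% of windows the longest run was at least that long. The longest run of the Sry-delta window was 14 (40.5%). Within 50 bp of the summit GC content was 18.8% at trem, 27.7% at M1BP and 32.7% at pita, against a median of 31.7% over conservative summits. At trem, 3.96% of the conservative summits had a GC content as low or lower. Sry-delta lay towards the other end with 51.5%, a value that 94.7% of the conservative summits did not exceed. The flanks of the Sry-delta summit at 300 bp had 46.5%. The difference from flanks to summit was -25.7 percentage points at trem, -22.8 at M1BP and -5.94 at pita.

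**Figure D2:**
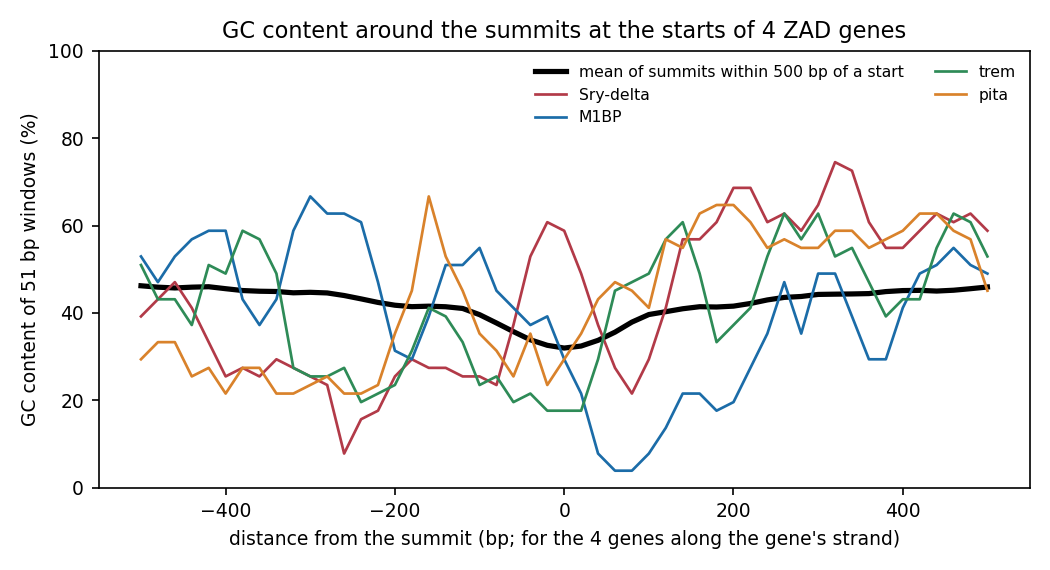
GC content of 51 bp windows (per cent) against the distance from the summit in bp, for the peaks at 4 ZAD genes along the gene's strand and for the mean of all conservative summits within 500 bp of a start. The mean dips at the summit; trem and M1BP fall to 17.6% and 3.92% at or just downstream of it, while Sry-delta rises to 60.8% near the summit.

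pita (FBgn0034878, 2R at 23548967 to 23554712, minus strand) encodes an architectural protein that works at insulators. It had the weakest of the 4 peaks, on 2R at 23554412 to 23554747, with a pooled signal of 99.7, below the median of the list. Replicate 1 gave 45.0 and replicate 2 gave 60.1. Replicate 2 had the larger value at pita and trem, and replicate 1 at Sry-delta and M1BP. The summit lay 132 bp downstream of the distal start, in the 5' UTR, and was the only summit inside a member gene. That makes 1 of 10 genes with a summit in the gene body, close to the 8.61% of all protein-coding genes. With a global IDR of 0.001 or less in place of the authors' limit, pita lost its peak (IDR 0.00122) and Sry-delta, M1BP and trem kept theirs, beside 8.33% of protein-coding genes.

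The log2 ratio of replicate 1 to replicate 2 was 0.82 at Sry-delta, 0.72 at M1BP, -0.06 at trem and -0.42 at pita. Over the 1701 conservative peaks found in both replicates' own lists, the median was 0.23 and the SD 0.40, and the range from the 5th to the 95th percentile ran from -0.43 to 0.86. All 4 values lay inside that range.

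CG14667, the tagged gene (FBgn0037317, 3R at 5375022 to 5376460, plus strand), had no thresholded peak at its start or in its body in any of the 4 lists. The strongest candidate in the gene lay in a coding exon, at 5375518 to 5375853, 664 bp downstream of the start. Its pooled signal was 55.5, within the top 3.48% of the ranked candidates, with a global IDR of 0.794 in the ranked list that holds every conservative peak and 0.0398 in the other ranked list of the series, above the limit of 0.01 in each. Replicate 2 alone gave 36.8 there (IDR 0.0249), and in replicate 1 the strongest candidate in the gene, 497 bp from the start, had 19.3 (IDR 0.465). The nearest conservative summit was 3277 bp upstream, 50 bp from the start of Polr2F, a gene for an RNA polymerase subunit, with a pooled signal of 167, 69.2 in replicate 1 and 106 in replicate 2. Another summit, 5130 bp upstream with 111, lay in a coding exon of CG31542 and 352 bp from a start of CG31542 and CG34277, and it was absent from the list of replicate 2 alone.

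The remaining 5 genes had at most weak candidates at their starts. In the ranked list behind the conservative list, 65.9% of protein-coding genes had some candidate within 500 bp of a start, with a median best signal of 31.1. dwg, also called Zw5, an insulator protein gene on X at 2727698 to 2730042, had 16.2 at 251 bp downstream of its start. Sry-beta, a relative of Sry-delta, had 9.57, and grau, an activator of the meiotic regulator cortex in oogenesis, had 5.98, each with a global IDR of 0.892. ouib, which activates the ecdysone synthesis gene spookier in the prothoracic gland, and ZIPIC, an insulator protein gene whose product interacts with CP190, had no candidate at a start in that list. In each case the signals were below the median of the genes that had one.

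Each of the 10 genes had a conservative summit within 10 kb. The share was 49.2% of protein-coding genes and 72.4% of 76 other genes whose protein matched the ZAD profile. The count of 10 members holds fewer independent places than genes, because several members are neighbours. The 10 genes shared 13 summits, all of which lay within 500 bp of an annotated start, with signals from 72.7 to 357 and a median of 152. The share of all conservative summits that lie so near a start is not given here, so this position cannot be called particular to these genes. Within 5 kb the count of genes was 7 of 10, without ZIPIC, grau and ouib, beside 36.0% of protein-coding genes and 52.6% of the 76 other ZAD matches. The median distance from a start to the nearest conservative summit was 3440 bp over the 10 genes and 12138 bp over all protein-coding genes.

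Of the 10 genes, 5 lie in a pair of gene clusters on 3R. ZIPIC, Sry-beta and Sry-delta lie between 30035240 and 30044886, where the annotation gives Sry-alpha the same span as Sry-beta. Of these 3 genes Sry-delta was the one with a peak at a start, and the start of ZIPIC was 6451 bp from it. The next summit, 2937 bp downstream of the Sry-delta start, lay between RpL32, a ribosomal protein gene, and CG7943, with a pooled signal of 279.8, 166 in replicate 1 and 111 in replicate 2. In the other cluster nom, ouib, CG8159, ranshi and M1BP, all with a ZAD match, lie in a row between 8723174 and 8731698. This row of 5 had 1 conservative summit, at its M1BP end, and it lay 5253 bp from the end of ouib.

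**Figure D3:**
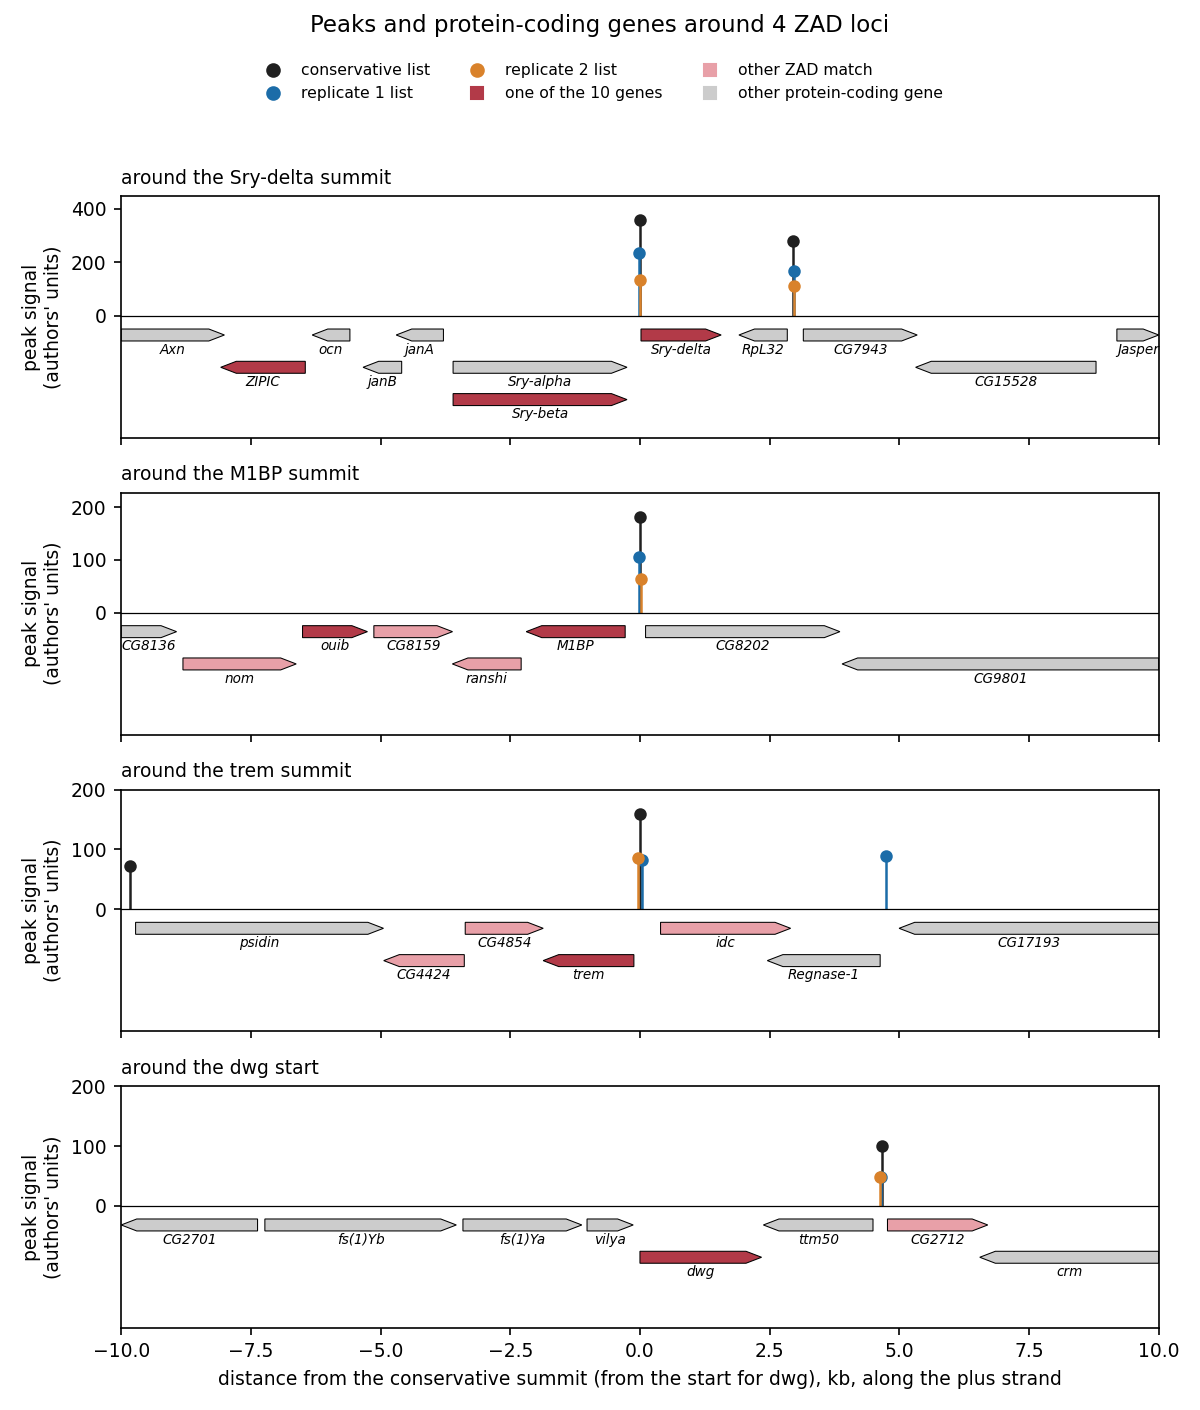
Peak signal (authors' units) against distance in kb along the plus strand, for 10 kb to either side of the summits at Sry-delta, M1BP and trem and of the start of dwg, with protein-coding genes as arrows below. Peaks of both replicates lie at the outer start of the ZAD gene rows at M1BP, between the ZAD genes trem and idc, and at CG2712, and not over ouib, ZIPIC, Sry-beta or dwg.

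Other ZAD genes also lay next to trem and dwg. CG4424, CG4854, trem and idc, all with a ZAD match, follow each other from 20026487 to 20034330, and the peak between trem and idc was the one conservative summit at their starts. A weaker conservative peak at the other side of the row, with 72.7, lay 102 bp from the start of psidin and near that of PIG-L, and neither replicate's own list held it. Replicate 1 alone had a peak of 89.4 at 4740 bp beyond the trem summit, past idc. The summit nearest to dwg, 4661 bp downstream of its start, lay 110 bp upstream of CG2712, another ZAD match, and near the start of ttm50. Its pooled signal was 99.9, with 48.1 in replicate 1 and 48.2 in replicate 2.

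pita and grau have no ZAD neighbour within 10 kb. A second summit near pita, with a pooled signal of 267, 129 in replicate 1 and 151 in replicate 2, lay in the 5' UTR of wmd, 59 bp from its start and near that of levy, a gene for a cytochrome c oxidase subunit. Around grau 3 summits were found, all over 5 kb from its start. They lay in introns of CG10543 (123) and RIC-3 (152) and upstream of Sou (110), and the last was missing from replicate 1's own list.

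The whole family was then read in the same way. The profile matched 84 proteins, 8 members and 76 others, from 13915 translated genes. Of the 76 other genes 17 had a conservative summit within 500 bp of a start (22.4%), beside the 12.6% of all protein-coding genes. Read from single replicates the share was 19.7% for replicate 1 and 13.2% for replicate 2, beside backgrounds of 11.4% and 9.62%. Of the 17, 9 had a peak at a start in both replicates' own lists, 5 in replicate 1's alone, 1 in replicate 2's alone and 2 in neither. With the nearest start only, 10 of 76 remained (13.2%, beside 8.9%). These 76 genes were not chosen by their peaks, yet family genes share peaks and lie next to each other, and the difference from the background was not tested.

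**Figure D4:**
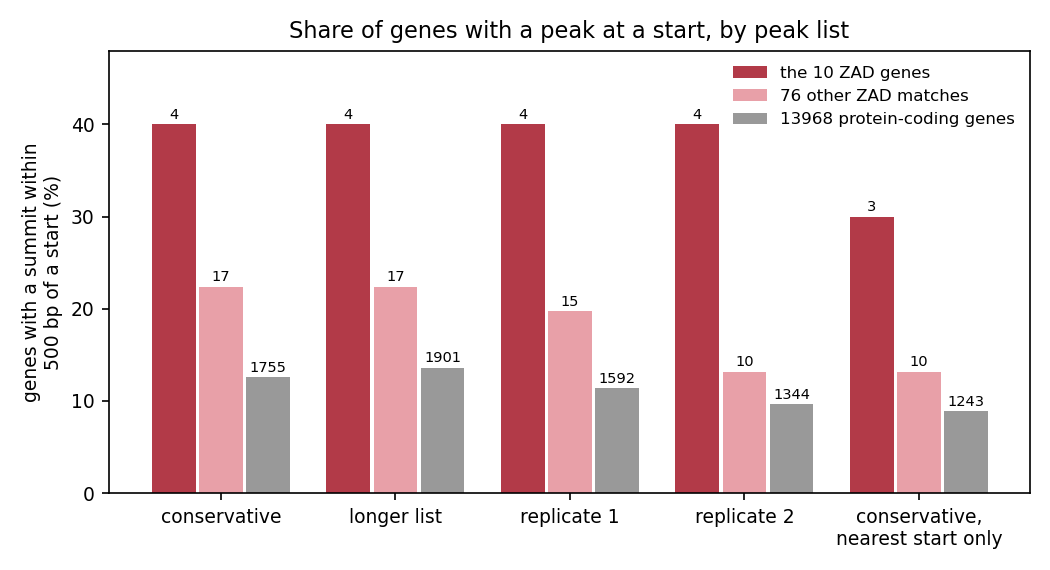
Percentage of genes with a summit within 500 bp of a start, for the 10 genes, 76 other ZAD matches and all 13968 protein-coding genes, in 4 thresholded lists and with each summit assigned to the nearest start; the number above a bar is its count of genes. The 10 genes stand at 40.0% in the 4 lists, and the other matches lie between 13.2% and 22.4%.

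The strongest peaks of the family were at genes outside the 10. CG1792 had a pooled signal of 765, rank 48 of the list, with 377 in replicate 1 and 379 in replicate 2. Its summit on 3R was 123 bp upstream of the start and shared with Mnat9. CG10147 on 3L followed with 601, 315 in replicate 1 and 286 in replicate 2, 166 bp upstream of the start and shared with Bulli. Both summits lay closer to a start of another gene, and with the nearest start only neither CG1792 nor CG10147 kept its peak. The signals of 765 and 601 exceed the 357 of Sry-delta, and the windows are shown to set their DNA beside that of the members. The windows are 3R:31616080-31616280 on the plus strand for CG1792 and 3L:6488490-6488690 on the minus strand for CG10147, with capitals again at the longest stretch of A and T.
CG1792: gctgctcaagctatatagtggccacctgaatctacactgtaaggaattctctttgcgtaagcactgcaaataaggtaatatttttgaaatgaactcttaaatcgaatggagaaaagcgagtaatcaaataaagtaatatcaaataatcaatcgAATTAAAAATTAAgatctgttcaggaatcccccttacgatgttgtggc
CG10147: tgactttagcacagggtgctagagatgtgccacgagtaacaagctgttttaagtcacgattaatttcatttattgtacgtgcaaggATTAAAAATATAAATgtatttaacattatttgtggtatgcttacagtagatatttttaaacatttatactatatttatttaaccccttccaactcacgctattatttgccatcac

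GC content within 50 bp of the summit was 27.7% at CG1792 and 22.8% at CG10147, and the flanks had 52.5% and 42.1%. Both had a shorter longest run of A and T than the M1BP window, with 13 and 15 bases. The next in order of pooled signal were CG18476 (274), CG3032 (199), D19B (183), CG12942 (165), idc (159), CG4820 (136), CG14710 (110.5), and CG14711 and Zaf1 (109 at a shared summit). With the nearest start only, D19B, CG12942, idc, CG4820 and CG14711 dropped out, and CG18476, CG3032, CG14710 and Zaf1 remained. CG4820 shares its summit with RpS25, a ribosomal protein gene, and was without a peak there in replicate 2's own list. CG14711 and Zaf1 also had none in replicate 2's own list, and CG14710 had none in that of replicate 1. The summits at the 17 genes lay upstream of the gene's nearest start, at a median offset of -117 bp. At CG3032 and Zaf1 that start was an internal one, and the summit lay in the gene's own 5' UTR, downstream of the outer start, as at pita. The share of upstream summits over all protein-coding genes is not given here, so an upstream position cannot be called particular to ZAD genes. The median signal was 110.5 over the 17 genes and 139 over the 1755 protein-coding genes with a peak at a start. A start of another gene lay at the same summit for 14 of the 17, and for 63.9% of those 1755.

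**Figure D5:**
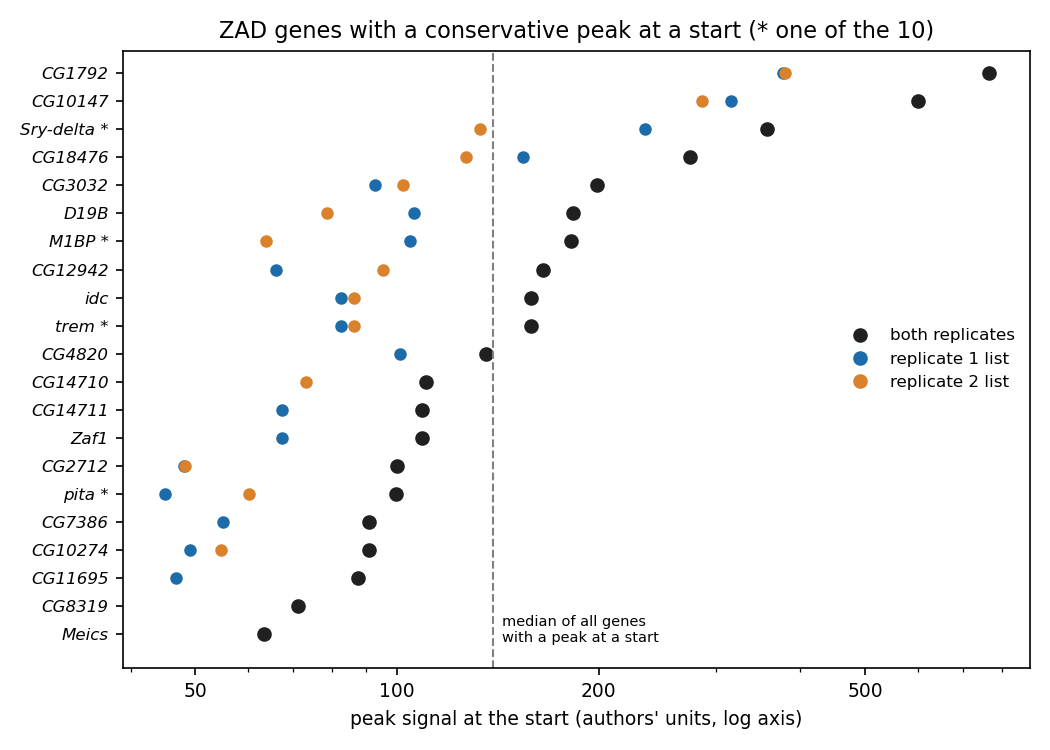
Peak signal at the start (log axis, authors' units) for the 21 ZAD genes with a conservative peak there, in both replicates together and in each replicate's own list; an asterisk marks the 10 genes and the dashed line is the median pooled signal of all protein-coding genes with a peak at a start, 139. CG1792 and CG10147 lie above Sry-delta, and Meics and CG8319 have no point in either replicate's own list.

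ZAD genes were concentrated on 3R and often adjacent. Counting the 10 members, 44 of 86 ZAD genes lay on 3R, or 51.2%, where 24.5% of protein-coding genes lie. Of the 86, 42 fell into 14 rows in which the next ZAD gene was within 10 kb. A peak at a start was found for 13 of these 42 genes (31.0%) and for 8 of the 44 single ones (18.2%), beside 12.6% of all protein-coding genes. The 13 include Sry-delta, M1BP and trem, and the 8 include pita, which were chosen with earlier results known. In replicate 2 alone, without replicate 1, the counts were 9 (21.4%) and 5 (11.4%), beside 9.62%. With the nearest start only they were 8 (19.05%) and 5 (11.4%), beside 8.9%. The difference between rows and single genes was not tested. Rows with a peak numbered 8. In the row CG10274, D19B, D19A and CG7386 on 3L, 3 of 4 genes had a peak, at 3 summits with signals from 90.8 to 183. In the row of CG14710, Zaf1, CG14711, CG6813 and CG18764, 3 of 5 genes had one, at 2 summits. The row of CG17803, CG17806, Nnk, CG17801 and Odj had none. A row of genes shares its surroundings, so its members are not independent of each other.

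Promoter sequences of the 10 genes were searched for 7 motifs. The percentages beside them are shares of windows and not of genes, and pita has 2 windows. The window ran from 250 bp upstream of a start to 50 bp downstream, on both strands, and motifs were allowed to overlap. The DRE, TATCGATA, which contains the BEAF-32 core CGATA, was present at Sry-beta and at the distal start of pita, and in 7.98% of the 19276 promoter windows of protein-coding genes. The Motif 1 core, GTCACACT, the element M1BP binds, was present at ZIPIC and grau and in 5.82% of those windows. It was also found within 100 bp of the summit at pita, as in 1.39% of conservative summit windows. The pita summit window also held CGATA (26.8% of summit windows) and GAGAG (22.2%), and that of Sry-delta held CGATA. The summit windows of M1BP and trem held none of the 7 motifs. The promoter window of M1BP itself held none of the 7 motifs, and neither did those of ouib and trem. The homeodomain core TAATTA was present at Sry-beta (18.9% of windows), GAGAG at the internal start of pita (33.1%), and CGATA in windows of 7 genes (45.7%). Neither the E-box CACGTG (4.01% of windows) nor the CTCF core AGGTGGC (3.43%) was found in any of these windows. A match describes letters in a window and shows no binding.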

How the data were processed

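Peak lists from 2 biological replicates were analysed. Per the labels' descriptions and the authors' file listings, peaks were called against a control on dm6 alignments; no source used here names the aligner or the peak caller. Each deposited list gives the authors' peak signal, an IDR score, −log10 of a q value and the summit's offset, and the ranked lists add −log10 of the global IDR. The depth is unknown, so no interval on a signal could be had. The 16 columns of the series' ranked lists that hold separate values per input were not used.

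Summits on the chromosome arms, not those on scaffolds, were assigned to transcript starts of Ensembl release 115, in 1-based dm6 coordinates, which every arm of the Release 6 genome sequence shares. The replicate value at a peak is that of the peak in the replicate's own list that overlaps it by 1 bp or more and has the nearest summit. Proteins were translated from the annotated coding sequences, because no protein table was given; the fixed plan had then left the family out, so its account was added after the files were seen. A profile from residues 1 to 100 of the 10 proteins (MAFFT 7.526, HMMER 3.4) was searched, rebuilt from its hits and searched again; hits needed an E-value below 1e-5 and a start within the first 150 residues. C2H2 patterns were C-x(2,4)-C-x(12)-H-x(3,5)-H.

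Members, gene lists and questions were chosen with earlier results of these data known. Named genes were the 10 members, genes with a start at or nearest to a summit within 10 kb of them, and the 10 other ZAD genes with the largest signal at a start; others (Meics, CG8319, CG7386, CG10274 and the genes of rows) were named after their values were seen. The counting was tested on simulated data. Python 3.11.15, pandas 2.3.3 and Biopython 1.88 were used. Alternatives covered the other list, each replicate alone, other distances, assignment to the nearest start, stricter limits and whole peaks in place of summits.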

Additional observations from a re-analysis of the deposited data

How the results depend on the processing

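The 10 genes gave 4 with a summit at a start in the conservative list, 3 at the lowest (within 250 bp, beside 9.74% of protein-coding genes; with the nearest start only, beside 8.9%; with a global IDR of 0.001 or less, beside 8.33%; and among peaks of at least the median signal, beside 7.86%) and 4 without either replicate. The 76 other ZAD matches gave 17 at first, 10 without replicate 1 and 15 without replicate 2. They gave 10 with the nearest start only, also when only protein-coding starts were used (an alternative added after the data were seen), 11 with a global IDR of 0.001 or less and 8 among peaks of at least the median signal (10.5%). The last 2 limits left 1164 and 1098 of the 1755 protein-coding genes. ZAD genes in rows went from 13 to 8 with the nearest start only, for either set of starts, and to 6 at the median signal. Single ZAD genes went from 8 to 5 with the nearest start only, for either set of starts, at both stricter limits and without replicate 1, and numbered 7 without replicate 2. The counts for rows and single genes under these settings were added after the data were seen. These settings use fewer peaks or fewer gene assignments by construction. Of the 17 genes, 16 were shared with the longer list, where E(var)3-9 replaced CG8319. Under the other settings the counts of genes at a start, in rows, in the gene body and within 10 kb stayed within 1.5 times. Signals at the 4 starts were the same in the longer list. With a reciprocal overlap of 0.5 required, the peak of replicate 2 at Sry-delta, 76 bp wide, had no match. No paired analysis was possible because there was 1 group. Depth limits what the absence of a peak shows.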
